A study of Homo sapiens and Mus musculus with 20 samples.

Results

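Satb1 sites were compared between MCF10A cells treated with camptothecin, an inhibitor of topoisomerase I, and untreated MCF10A cells. A site was a ChIP-seq peak, and it counted as kept when it shared at least 1 bp with a peak of the other list. Untreated peaks without such a partner were called lost, and camptothecin peaks without one were called gained. Of the 22877 untreated sites, 18680 were kept and 4197 were lost, which is 18.3% (95% interval 17.8 to 18.9). Of the 24475 camptothecin sites, 18631 were kept and 5844 were gained, which is 23.9% (23.3 to 24.4). The 2 lists hold 47352 of the 241914 peaks in the 8 Satb1 ChIP-seq lists of the series.

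MCF10A, an established line of human mammary epithelial cells, has no native Satb1. The cells of both lists carried full-length Satb1 fused at its C terminus to eGFP, delivered by lentivirus under a cumate switch and sorted by fluorescence, and chromatin was precipitated with a GFP antibody. One list came from cells given camptothecin for 2 h before fixation and the other from cells given no inhibitor, and the labels state no dose. Further lists came from the same cells after 2 h of ICRF-193, an inhibitor of topoisomerase II, from untreated MCF10A cells expressing the shortened constructs dHD (without the homeodomain) and N-C1 (the N-terminal domain with CUT1), and from ATAC-seq of native cells and of Satb1-expressing cells, both without inhibitor. Each condition had 1 list, so differences have no replicate check and no test was made.

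Satb1 is a chromatin organizer of the T cell lineage that binds A/T-rich DNA through 2 CUT domains and a homeodomain. Topoisomerase I nicks one strand and lets DNA swivel, which removes the supercoils that polymerases leave behind and ahead of them. Camptothecin traps the enzyme on nicked DNA, and the loss of topoisomerase I activity is known above all for lowering the output of very long genes. The comparison asks which Satb1 sites differ when that relaxation is blocked.

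The lists differed in more than the treatment. The narrowest peak was 219 bp wide in the untreated list and 250 bp in the camptothecin and ICRF-193 lists, and the median widths of the untreated and camptothecin lists were 314 and 358 bp. The median fold enrichment, the authors' ratio of pileup to local background at the peak, was 7.32 untreated and 6.64 after camptothecin. The depth of each list is unknown. A site missing from a list is a site below that list's threshold, not a site shown to be free of Satb1. Percentages carry exact (Clopper-Pearson) 95% intervals. These cover counting error alone and treat neighbouring sites as independent. For a count of 0 the limit given is not such an interval but 3 counts of the total. The cell type was checked in the ATAC-seq lists. Promoters of 10 of 10 mammary epithelial markers, among them KRT5, KRT14, TP63 and EGFR, held a peak in both lists, against 3 of 10 lymphoid markers in native cells and 4 of 10 in Satb1-expressing cells, while 76.9% of all protein-coding genes had an open promoter in native cells.

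Sequences of the strongest lost, gained and kept sites are shown because base composition differed between the classes. Each is the 151 bp of the plus strand of hg19 around the summit. Capitals mark matches to the Satb1 consensus, which stands for 8 words of 7 bases. The first is CTAATAA and changing its last base gives CTAATAG. With the middle base changed these become CTATTAA in the former case and CTATTAG in the latter. Beginning instead with the other pyrimidine gives TTAATAA alongside the word TTAATAG, together with TTATTAA followed by the word TTATTAG. The set is its own reverse complement, so 1 strand covers both, and overlapping matches were all counted. The 2 strongest lost sites lay near GUCY1A1 (chr4:156556430-156556580) and near MED27 (chr9:134959725-134959875).
GUCY1A1, lost: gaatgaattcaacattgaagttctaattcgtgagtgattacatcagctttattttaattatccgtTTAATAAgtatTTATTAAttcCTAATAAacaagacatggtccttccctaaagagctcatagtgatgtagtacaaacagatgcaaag
MED27, lost: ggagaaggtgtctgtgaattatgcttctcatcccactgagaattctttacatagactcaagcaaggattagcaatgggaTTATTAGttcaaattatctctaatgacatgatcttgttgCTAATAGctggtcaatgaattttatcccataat

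The 3 strongest gained sites lay nearest to FLRT2 (chr14:87014929-87015079), PLA2G4A (chr1:188174817-188174967) and MTRNR2L1 (chr17:22032190-22032340).
FLRT2, gained: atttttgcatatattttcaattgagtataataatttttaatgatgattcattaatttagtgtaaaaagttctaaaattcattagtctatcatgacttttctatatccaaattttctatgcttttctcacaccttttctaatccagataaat
PLA2G4A, gained: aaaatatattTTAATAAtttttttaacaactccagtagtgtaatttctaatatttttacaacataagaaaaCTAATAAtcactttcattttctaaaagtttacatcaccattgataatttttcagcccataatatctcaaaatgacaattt
MTRNR2L1, gained: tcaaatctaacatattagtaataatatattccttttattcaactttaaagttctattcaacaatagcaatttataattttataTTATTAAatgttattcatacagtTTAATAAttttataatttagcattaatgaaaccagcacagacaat

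The 2 strongest kept sites lay nearest to FOXD4L3 (chr9:70931435-70931585) and SLC10A2 (chr13:104890925-104891075). The first holds overlapping consensus words, and the second is a tandem array without an exact word in this window.
FOXD4L3, kept: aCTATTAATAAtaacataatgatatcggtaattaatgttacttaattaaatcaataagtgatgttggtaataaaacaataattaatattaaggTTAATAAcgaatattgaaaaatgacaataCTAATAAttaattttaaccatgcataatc
SLC10A2, kept: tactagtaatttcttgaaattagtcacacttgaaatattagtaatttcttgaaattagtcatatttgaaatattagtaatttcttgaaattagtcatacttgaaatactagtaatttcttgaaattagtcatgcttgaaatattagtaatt
In these windows A/T made up 69.5 and 64.9% at the 2 lost sites, 78.1, 79.5 and 81.5% at the 3 gained sites, and 81.5 and 78.8% at the 2 kept sites. All 3 gained windows were richer in A/T than either of the 2 lost windows.

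Lost and gained sites came from the weak part of their own lists. The lost sites had a median fold enrichment of 5.68 (quartiles 5.13 and 6.26, n = 4197), against 8.15 (6.23 and 12.0, n = 18680) at the untreated sites that were kept. The gained sites had 5.01 (4.47 and 5.55, n = 5844), against 7.64 (5.92 and 11.5, n = 18631) at the kept camptothecin sites. In the weakest decile of the untreated list 43.2% of sites were lost (41.2 to 45.3), in decile 5 from below 19.9%, and in the strongest 2 deciles 0 of 4575, for which 3 counts would be 0.0656%. In the weakest decile of the camptothecin list 68.1% were gained (66.2 to 69.9), in decile 5 from below 21.3%, and in the strongest 2 deciles 0 of 4895, for which 3 counts would be 0.0613%. At a fold enrichment of 10 or more, 4 of 6465 untreated sites were lost and 1 of 5905 camptothecin sites was gained. The strongest sites of either list were therefore present in both.

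**Figure D1:**
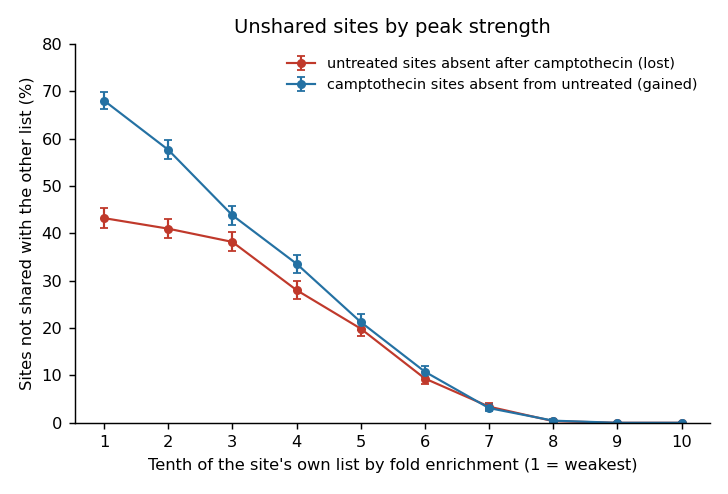
Share of sites without a partner in the other list (y axis, %) in each decile of the site's own list by fold enrichment (x axis, 1 = weakest), with exact 95% intervals. Red points are untreated sites lost after camptothecin (43.2% in the weakest decile), blue points camptothecin sites gained (68.1%), and both reach 0 in the strongest 2 deciles.

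At the edge of the overlap rule, the smallest stretch shared by a kept untreated site was 8 bp and 1 kept site shared under 50 bp. The smallest gap was 27 bp for a lost site and 27 bp for a gained site. A peak of the other list within 200 bp was found for 27 lost and 37 gained sites. Most of them were far from any partner, with a median gap of 37.5 kb for lost and 23.5 kb for gained sites. Gained sites lay closer to other sites of their own list (median 20.7 kb to the next, against 27.0 kb for kept camptothecin sites), and lost sites lay farther (39.0 kb, against 29.4 kb for kept untreated sites). Unshared peaks were narrower than kept ones, with medians of 248 bp for lost and 336 bp for kept sites of the untreated list, and 291 bp for gained and 385 bp for kept sites of the camptothecin list. Among sites of like strength the widths lay closer. In the weakest quartile by fold enrichment they were 236 and 252 bp for lost and kept, and 277 and 283 bp for gained and kept sites. In quartile 3 they were 296 and 334 bp, and 359 and 376 bp.

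Lost sites were poorer in A/T than kept sites, and gained sites were richer. Over the 200 bp at the peak midpoint, A/T content was 68.9% on average at lost sites (SD 5.13 across sites) and 73.2% (SD 5.25) at kept untreated sites. It was 74.2% (SD 4.54) at gained sites and 73.3% (SD 5.203) at kept camptothecin sites. The difference from kept sites was -4.30 percentage points for lost sites (95% interval across sites -4.47 to -4.13) and 0.969 for gained sites (0.830 to 1.11). In the untreated list the share of lost sites went from 52.0% (48.3 to 55.7) of the 729 sites with under 62% A/T to 28.7% (27.4 to 30.1) at 66 to 70%, 9.35% (8.62 to 10.1) at 74 to 78% and 1.57% (0.859 to 2.61) of the 894 sites with 82% or more. In the camptothecin list the share of gained sites was 7.23% (4.73 to 10.5) of the 346 sites under 62%, 18.9% at 66 to 70%, 27.8% at 74 to 78% and 29.5% (27.9 to 31.1) at 78 to 82%. In the class of 82% or more, gained sites made up 19.96% (17.6 to 22.5). That class was also the strongest of the list, with a median fold enrichment of 10.98.

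**Figure D2:**
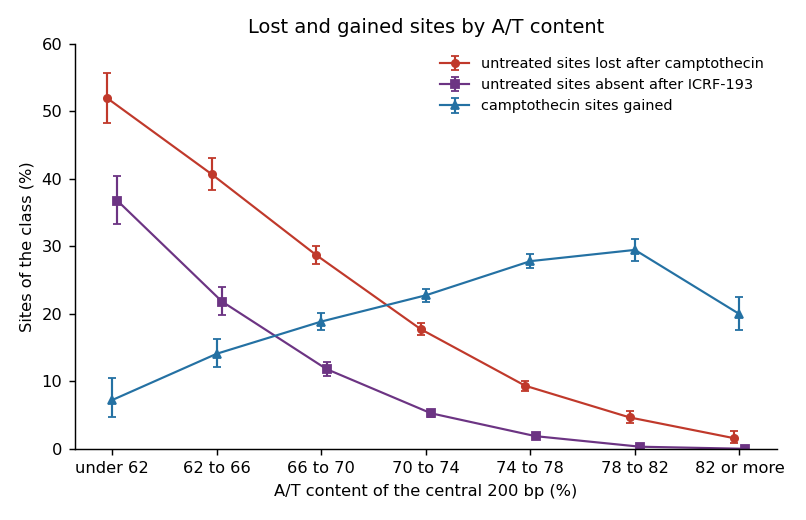
Share of sites (y axis, %) by A/T content of the central 200 bp (x axis, %), with exact 95% intervals. Red circles are untreated sites lost after camptothecin (52.0% down to 1.57%), purple squares untreated sites absent after ICRF-193 (36.8% down to 0%), and blue triangles camptothecin sites gained (7.23% up to 29.5%, then 19.96%).

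The contrast was present among sites of like strength. In the weakest quartile of the untreated list, lost sites held 69.1% A/T and kept sites 73.0%, and in quartile 3 67.4 and 72.7%. In the weakest quartile of the camptothecin list, gained sites held 73.6% and kept sites 71.1%, and in quartile 3 76.9 and 73.2%. The surrounding DNA differed in the same directions, by -1.58 points for lost and 1.27 for gained sites. In flanks 1000 to 2000 bp from the midpoint, A/T content was 61.2% at lost and 62.8% at kept untreated sites, and 64.0% at gained and 62.7% at kept camptothecin sites. Within each quintile of sites by flank A/T, lost sites still held less A/T than kept sites, for example 67.4 against 72.2% in the lowest quintile and 70.7 against 74.2% in the highest. The GUCY1A1 and MED27 windows printed above are examples of the lost class, and the FLRT2, PLA2G4A and MTRNR2L1 windows of the gained class. A/T content can also change how well a fragment is amplified and sequenced. Without the read data the part of library composition in this contrast was not tested.

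The untreated list was also shared with ICRF-193. There, 36.8% (33.3 to 40.4) of the untreated sites under 62% A/T had no ICRF-193 peak, 11.8% of those at 66 to 70% and 0 of the 894 at 82% or more, for which 3 counts would be 0.336% and the exact upper bound is 0.412%. Both inhibitor lists share the untreated list as their partner, so the 2 series of values are not independent. The ICRF-193 list was larger, with 37350 peaks.

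Consensus words were present at nearly every site of each class and were fewer at unshared sites. In 400 bp at the midpoint, at least 1 word was found at 95.8% of lost and 96.8% of kept untreated sites, and at 94.0% of gained and 96.8% of kept camptothecin sites, against 25.9% of 141780 windows of 400 bp placed every 20 kb along hg19. Lost sites held 2.20 words on average (SD 1.06) and gained sites 2.26 (SD 1.199), against 2.88 at kept sites of either list (SD 1.64 untreated and 1.63 camptothecin). In 150 bp the difference of lost from kept sites was -0.242 words, against -0.676 in 400 bp, and that of gained from kept sites -0.589 against -0.620. Sites with 4 or more words made up 10.3% (9.37 to 11.2) of the lost and 13.3% (12.4 to 14.2) of the gained sites, but 27.7 and 27.9% of the kept sites. Gained sites were thus A/T rich without more words. In quartile 3 by strength they held 2.59 words and kept sites 2.71, and in the weakest quartile 2.17 and 2.30. Lost sites held 2.20 words and kept sites 2.46 in the weakest quartile, and 2.19 and 2.72 in quartile 3. In both quartiles the differences were smaller than over all strengths.

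Among kept sites, the change in rank also differed by A/T content. The ranks come from the same 2 lists that define the classes, so they are no separate support for the contrast. Only pairs with a peak in both lists enter, which limits how far weak untreated sites can fall. Percentiles were taken over all peaks of a list, of which 18.3% untreated and 23.9% camptothecin peaks were unshared. For 18526 pairs in which 1 untreated peak met 1 camptothecin peak, the percentile of fold enrichment within each list was compared. The median shift was 1.36 percentile points over all pairs (quartiles -5.62 and 11.4). The pairs under 62% A/T shifted by a median of -11.7 points (quartiles -24.5 and -1.71), and 16.2% (12.5 to 20.6) of these 339 pairs ranked higher after camptothecin. At 70 to 74% the median shift was 0.35 and 51.7% ranked higher. At 78 to 82% it was 6.62 and 78.8% ranked higher, and at 82% or more it was 3.79 and 78.9% (76.1 to 81.6, n = 869). The median fold enrichment of the pairs under 62% was 9.24 untreated and 6.32 after camptothecin, and that of the pairs at 82% or more was 12.5 and 14.4, each relative to its own list's background. The shift also moved with the untreated strength, with medians of 16.8 points in the weakest and -0.24 in the strongest quartile of the untreated list. Under 62% A/T it was 0.14 in the weakest quartile (n = 49), -21.7 in quartile 3 and -9.61 in the strongest, and at 62 to 66% it was 5.52, -15.2 and -5.09. At 78 to 82% it was 29.2 in the weakest, 9.46 in quartile 3 and 1.25 in the strongest. In each of the 4 quartiles the pairs at 78 to 82% thus shifted upward by more than the pairs under 62%. By word number the shift ranged from 0.64 at 1 word to 2.22 at 4 words.

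**Figure D3:**
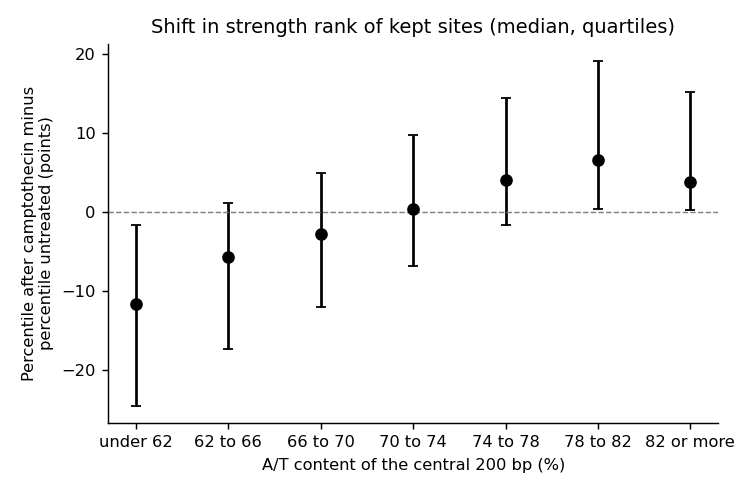
Change in the percentile of fold enrichment of kept sites, camptothecin minus untreated (y axis, percentile points), by A/T content of the central 200 bp (x axis, %), for 18526 pairs. Points are medians and bars run between the quartiles; the median goes from -11.7 points under 62% to 6.62 points at 78 to 82%.

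The kept sites that moved most in rank were these. An intronic site of TEX9 on chromosome 15 had a fold enrichment of 4.72 untreated and 14.1 after camptothecin, moving from percentile 5.10 to 87.3, and it held 97.0% A/T. Sites nearest to ETDB, MMUT (the mitochondrial methylmalonyl-CoA mutase), SLC35B3 and CNTN6 (a contactin of the nervous system) moved up by 75.6, 71.8, 70.4 and 70.2 points, with 74.5 to 89.0% A/T. In the other direction, a site in NTF3, the gene of neurotrophin-3, went from a fold enrichment of 11.4 to 3.96 and from percentile 77.6 to 2.57, with 66% A/T. Sites in ST3GAL1, a sialyltransferase, and nearest to TENM2, a teneurin, EOMES, a T-box transcription factor, and IZUMO3 moved by -67.7, -66.0, -64.5 and -63.0 points, with 56.5 to 72.0% A/T. All 5 sites that moved up held more A/T than the 5 that moved down.

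The 10 strongest lost sites had fold enrichments of 9.52 to 11.02 in the untreated list and 57.5 to 67.5% A/T. The first, 31.4 kb before the start of GUCY1A1, a subunit of the nitric oxide receptor guanylate cyclase, lay at chr4:156556346-156556634. Its fold enrichment was 11.02 untreated, 6.89 after ICRF-193, 11.1 in the dHD list and 16.5 in the N-C1 list, and the nearest camptothecin peak was 11.3 kb away. The site 4.55 kb before the start of MED27, a Mediator subunit, had 10.6, 7.43, 13.4 and 13.8 in the same lists, and a camptothecin peak lay 1.09 kb away. An intronic site of POLA1, the catalytic subunit of DNA polymerase alpha, had 10.2, 9.09, 14.4 and 15.6, with no camptothecin peak within 179 kb. All 10 were peaks in the dHD and N-C1 lists, and 9 of 10 in the ICRF-193 list.

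Further strong lost sites were those of SIX2 (a homeobox factor), B3GALT2 (a galactosyltransferase), FAT4 (an atypical cadherin), MDFIC, GALC (the lysosomal galactosylceramidase) and CHRNA7 (the alpha 7 nicotinic receptor). The CHRNA7 site, in an intron of the 250 kb gene, was the one without an ICRF-193 peak. It had 9.52 untreated, 12.0 in the dHD list and 12.1 in the N-C1 list. The site nearest to B3GALT2 lay 1452 kb from its start and had the lowest A/T content, 57.5%. None of the 10 overlapped an ATAC-seq peak, and 7 lay between genes. CHRNA7 has a near-identical partial copy elsewhere in the genome, so reads at this site may be split or shared between copies.

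The 10 strongest gained sites had fold enrichments of 8.81 to 10.3 after camptothecin and 75 to 91.5% A/T, above every one of the 10 strongest lost sites. The first lay 1015 kb downstream of the start of FLRT2, a membrane protein of cell adhesion, at chr14:87014784-87015203. Its fold enrichment was 10.3 both after camptothecin and after ICRF-193 and 6.69 in the dHD list, with no N-C1 peak. The site 1377 kb from the start of PLA2G4A, the cytosolic phospholipase A2, had 9.90 after camptothecin, 7.92 after ICRF-193 and 4.83 in the N-C1 list, with no dHD peak. In an intron of APLF, an end-joining repair factor, a site of 90.5% A/T had 9.53 after camptothecin and overlapped an ICRF-193 peak of 53.8, and an untreated peak lay 0.307 kb away. All 10 were ICRF-193 peaks, while 4 of 10 were dHD peaks and 5 of 10 N-C1 peaks.

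Among the rest, the site nearest to NLGN4X, a neuroligin of synapses, had 8.99 after camptothecin, 12.99 after ICRF-193, 7.64 in the dHD list and 7.95 in the N-C1 list. Those of IRAK1BP1 and CBLL1, a ubiquitin ligase, lay in introns and were present in all 3 further lists. The site nearest to MRPL39, a mitochondrial ribosomal protein, lay 1899 kb from its start. An intronic site of ITGA3, the integrin alpha 3 subunit of epithelial adhesion, had 8.81 after camptothecin and 11.7 after ICRF-193, held no consensus word and was 91.5% A/T. MTRNR2L1 and NBPF24 belong to families of near-identical copies, and their values are uncertain for that reason. None of the 10 overlapped an ATAC-seq peak.

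The 5 strongest kept sites were present in all 5 MCF10A lists. The site 13.7 kb from the start of FOXD4L3, a forkhead gene with near-identical copies, had 59.0 untreated, 78.3 after camptothecin, 86.6 after ICRF-193, 52.1 in the dHD list and 71.3 in the N-C1 list. The site nearest to SLC10A2, the ileal bile acid transporter, had 50.8, 75.002, 85.4, 54.5 and 53.6. The site nearest to DNAJC19, a mitochondrial chaperone, had 53.6, 68.5, 79.1, 9.91 and 37.1, so its dHD value was the lowest of the 5. GPC6, a glypican, held a site of 55.7 untreated and 68.3 after camptothecin with 21 words, and the DEFA5 site had 56.2 and 68.3. Within the top of each list the values after camptothecin were larger for all 5, but these sites were chosen for their camptothecin value.

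Gained sites were less often peaks of the shortened constructs. This is partly set by the rule, since kept camptothecin sites are peaks of an untreated list and gained sites are not. The shares of gained and kept sites are over all strengths, and gained sites were weaker. In the dHD list, 63.4% of gained sites (62.1 to 64.6) had a peak, against 88.7% (88.2 to 89.1) of kept camptothecin sites, and in the N-C1 list 76.5% (75.4 to 77.6) against 95.3% (95.01 to 95.6). Over all strengths, lost and kept untreated sites had like shares, 88.4 against 88.6% in the dHD list and 94.97 against 95.2% in the N-C1 list. Those intervals overlap. Lost sites were weaker, and in quartiles 1 to 3 by strength they were more often N-C1 peaks, with intervals apart. The N-C1 shares were 93.6 against 90.3% in the weakest quartile, 96.3 against 94.02% in quartile 2 and 98.997 against 96.2% in quartile 3. In the dHD list they were 86.6 against 84.8%, 89.8 against 87.2% and 94.98 against 90.3%. Only in quartile 3 were the dHD intervals apart. With a reciprocal overlap of 50% in place of 1 bp, and over all strengths, lost sites were less often dHD peaks than kept sites, by -12.3 percentage points. In the N-C1 list the same rule gave 0.380 points (-0.568 to 1.33). Such a rule depends on peak width. The median was 428 bp in the dHD and 334 bp in the N-C1 list, against 248 bp at lost and 336 bp at kept sites. The part of width was not tested. Both construct lists came from cells without inhibitor and were larger than the untreated full-length list, with 50537 and 62856 peaks. Gained sites without a dHD peak held 76.2% A/T (SD 5.07, n = 2141) and those with one 73.1% (SD 3.77, n = 3703). Gained sites without an N-C1 peak held 77.4% (SD 5.30, n = 1374) and those with one 73.2% (SD 3.77).

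In the ICRF-193 list, 79.5% (78.4 to 80.5) of gained and 68.1% (66.7 to 69.6) of lost sites had a peak, against 98.5% of kept sites of either list. The 1337 lost sites missing from that list too held 66.4% A/T (SD 5.23), and the 2860 found there 70.01% (SD 4.68). Of the gained sites, 863 were ICRF-193 peaks without a peak in either construct list, and 262, or 4.48% (3.97 to 5.05), were found in no other MCF10A list. Of the lost sites, 26 were found in no other list.

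Gained sites lay farther from genes than kept sites, and lost sites lay nearer. The median distance to the nearest protein-coding start was 83.9 kb (quartiles 23.8 and 276 kb) for lost sites, 113 kb (30.6 and 388 kb) for kept untreated sites, 113 kb for kept camptothecin sites and 156 kb (40.01 and 523 kb) for gained sites. Within 50 kb of a start lay 38.9% (37.4 to 40.4) of the lost, 33.8% (33.1 to 34.5) of the kept untreated, 33.9% (33.2 to 34.5) of the kept camptothecin and 28.7% (27.5 to 29.9) of the gained sites. More than 500 kb from any start lay 13.8, 19.8, 19.7 and 26.1%. Promoters, taken as 1000 bp before to 100 bp after a start, held 0.715% (0.483 to 1.02) of lost, 0.514% of kept untreated, 0.526% of kept camptothecin and 0.257% (0.144 to 0.423) of gained sites. In the weakest quartile of each list the shares within 50 kb were 40.3% for lost against 32.1% for kept, and 28.4% for gained against 34.6% for kept sites.

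**Figure D4:**
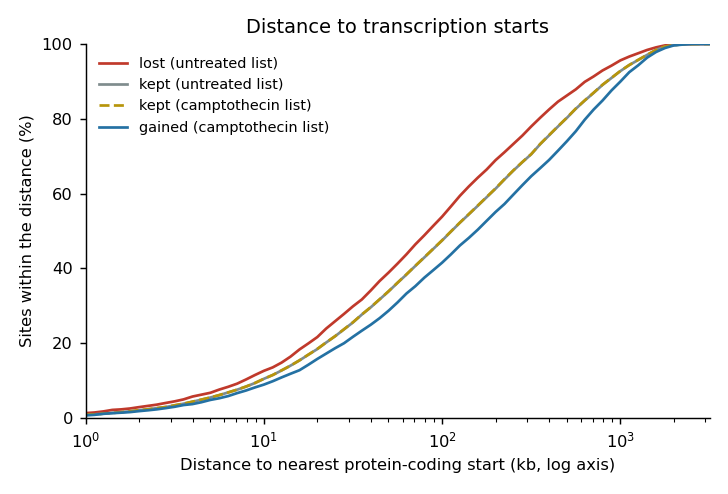
Cumulative share of sites (y axis, %) within a distance of the nearest protein-coding transcription start (x axis, kb, log axis), for lost, kept and gained sites. The curve of lost sites (38.9% within 50 kb) lies above, and that of gained sites (28.7%) below, the overlapping curves of kept sites (33.8 and 33.9%).

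Base composition moved with gene distance, and its part in these differences was not tested. Among sites of 70 to 74% A/T, 20.03% (18.5 to 21.6) of untreated sites within 50 kb of a start were lost and 12.99% (11.2 to 15.0) of those beyond 500 kb. Among sites of 66 to 70% the shares were 28.6 and 28.1%, and their intervals overlap. Gained sites kept the contrast more widely. They made up 20.2% of camptothecin sites within 50 kb and 26.6% beyond 500 kb at 70 to 74% A/T, and 25.6 and 32.2% at 74 to 78%.

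A protein-coding gene body held 42.7% (41.2 to 44.2) of the lost, 39.6% (38.9 to 40.3) of the kept untreated and 35.9% (34.7 to 37.2) of the gained sites. The containing gene had a median length of 235 kb for lost, 263 kb for kept untreated and 293 kb for gained sites. Genes of 500 kb or more held 26.3% (24.3 to 28.4) of the lost sites that lay in genes, 29.2% (28.2 to 30.3) of the kept and 32.4% (30.4 to 34.5) of the gained sites. The intervals of lost and kept sites overlap slightly. Against kept sites the difference was -2.90 percentage points (-5.19 to -0.617) for lost and 3.21 (0.956 to 5.47) for gained sites. With genes of every type it was -1.84 (-3.70 to 0.0183) and 1.62 (-0.155 to 3.39), and with −log10 q of at least 5 in both lists -2.23 (-4.60 to 0.151) for lost sites, intervals that include 0. Genes under 50 kb held 9.54, 8.54 and 7.43%, with overlapping intervals. Counted per gene class, the 323 genes of 500 kb or more had 2642 untreated and 2850 camptothecin sites, with 17.9% of the former lost and 24.1% of the latter gained. The 13314 genes under 50 kb had 914 and 889 sites, with 21.7% lost and 20.02% gained. Among sites of like A/T content the lost shares followed no steady order. At 62 to 66% A/T they were 43.4% (35.9 to 51.1) in genes of 500 kb or more and 37.9% (26.2 to 50.7) in genes under 50 kb. At 70 to 74% they were 17.6 and 17.7%, and at 74 to 78% 7.81 and 11.5%, with overlapping intervals. Along the gene the classes did not separate, with median positions of 48.1, 48.3 and 47.8% of the way from start to end for lost, kept untreated and gained sites in genes over 200 kb. The promoter of the containing gene was open in native cells for 80.1, 79.5 and 81.4%.

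The genes with the most gained sites were long, and all 10 also held lost sites. CSMD3, a large membrane protein gene of 1214 kb, had 50 untreated and 75 camptothecin sites, of which 28 were gained, while 4 were lost. PTPRD, a receptor tyrosine phosphatase of 2299 kb, had 27 and 40 sites with 18 gained and 5 lost, and EYS, a photoreceptor protein gene of 1987 kb, had 40 and 49 with 16 gained and 5 lost. RIMS2, a gene of synaptic vesicle release, had 15 gained of 37 sites, and CCSER1 13 of 32. NAALADL2 and GPATCH2 had 12 gained sites each, GPATCH2 in a gene body of 204 kb with 19 camptothecin and 10 untreated sites. RYR2, the cardiac calcium release channel, and LRP1B, of the low density lipoprotein receptor family, had 11 each, and ROBO2, a receptor for Slit, had 10. Against a share of 23.9% over the whole list, the gained share in these 10 genes ran from 24.4% in ROBO2 to 63.2% in GPATCH2. These genes were ranked by that count, so their high shares are a description.

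The genes with the most lost sites were long as well. ERBB4, the receptor tyrosine kinase for neuregulins, had 24 untreated and 21 camptothecin sites with 8 lost and 5 gained, and LRP1B had 8 lost of 35 beside its 11 gained. LSAMP, an adhesion molecule of neurons, had 7 lost of 18 and 1 gained of 12. GALNTL6 had 7 lost of 19 and 9 gained of 21, and ZFPM2, a cofactor of GATA factors, 7 lost of 34 and 10 gained of 37. ROBO1 had 6 lost of 13 and 3 gained of 10. CHRM3, a muscarinic receptor, also had 6 lost sites, and SYT1, a calcium sensor of synaptic release, ANKS1B and CNTNAP2, a neurexin relative, had 5 each. Against a share of 18.3% over the whole untreated list, the lost share in these 10 genes ran from 20.6% in ZFPM2 and 22.9% in LRP1B to 46.2% in ROBO1. They were ranked by their count of lost sites, so these shares are a description. The 5 genes with the most kept sites were CSMD3 with 46, EYS with 35, ROBO2 with 31, PCDH15, a protocadherin of hair cells, with 30, and GPC5, a glypican, with 27. PCDH15 had 34 sites in each list, with 4 lost and 4 gained.

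Gene groups were counted by a site in the gene body or within 10 kb. Over all 20090 protein-coding genes, 7.86% had a gained site and 8.92% a lost site, and 14412 had no site in either list. Of the 323 genes of 500 kb or more, 65.9% had a gained and 72.8% a lost site. Common fragile site genes, very long genes at which chromosomes tend to break under replication stress, had a gained site in 20 of 24 and a lost site in 21 of 24, with a median length of 1359 kb. Their sites numbered 361 untreated and 405 after camptothecin, with 60 lost and 105 gained. In the bodies of all 323 genes of 500 kb or more, 17.9% of untreated sites were lost and 24.1% of camptothecin sites gained. Over the whole lists the shares were 18.3 and 23.9%. FHIT had 2 lost and 3 gained sites, WWOX 1 lost and 0 gained, DMD 3 and 5, and DAB1 4 and 1. Synaptic adhesion genes had a gained site in 16 of 31 and a lost site in 19 of 31. In all, 68 of their 281 camptothecin sites were gained and 43 of their 256 untreated sites lost. NLGN1 and NEGR1 had 7 gained and 1 lost each, and NTM 0 gained and 4 lost.

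Glutamate and GABA receptor genes had a gained site in 13 of 26 and a lost site in 12 of 26. GRIK2, a kainate receptor subunit, went from 13 to 19 sites with 6 gained and 0 lost. GRIA4 and GRM8 had 3 lost and 1 gained each. Type II cadherins had a gained site in 4 of 13 and a lost site in 3 of 13. CDH18 had 8 gained and 0 lost, and CDH12 4 gained and 1 lost. These groups hold long genes, and their counts moved with gene length.

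Groups with genes shorter than those had few sites. Over all 20090 protein-coding genes, 14412 had no site in either list, 7.86% had a gained site and 8.92% a lost site. Median length was 43.6 kb in the topoisomerase group and 27.3 kb over all genes. Of 13 topoisomerase and topoisomerase repair genes, 9 had no site in either list, 2 had a gained site and 1 a lost site. TOP2A and TOP2B, the genes of both topoisomerase II enzymes, had 1 site each, gained. TDP1, which clears trapped topoisomerase I from DNA, had 3 untreated sites and 1 after camptothecin, with 1 lost. Of 20 genes of the p53 and DNA damage response, 16 had no site in either list, 2 had a gained site and 1 a lost site. ATM, the kinase of double-strand breaks, had 3 untreated sites and 1 camptothecin site with 2 lost, ATR, the kinase of replication stress, had 1 gained among 4, and RRM2B, a p53-induced ribonucleotide reductase subunit, 1 gained among 2. Of 16 immediate early genes, FOSB had 1 site, which was lost. Olfactory receptors of chromosome 11 had a gained site in 1 of 26 (OR8H2), and ribosomal protein genes had 1 gained (RPS6) and 1 lost (RPS3) in 26.

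No site of either list lay at 7 of 17 basal and 11 of 16 luminal mammary genes. For genes linked to Satb1 in breast cancer it was 17 of 22, and over all genes 14412 of 20090. Of 22 genes linked to Satb1 in breast cancer, CDH1, encoding E-cadherin, and EGFR lost 1 site each, and 0 of 22 had a gained site. Of 17 basal genes, 2 had a gained site and 2 a lost site, 11.8% each, against 7.86 and 8.92% over all genes. TP63, the basal lineage regulator, had 1 gained site, while NRG1, encoding neuregulin 1, had 12 untreated and 9 camptothecin sites with 3 lost, and EGFR is counted here again. Of 16 luminal genes, ESR1, the estrogen receptor gene, had 1 gained site and PGR and PRLR, receptors for progesterone and prolactin, 1 lost site each.

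By chromosome, lost sites were most frequent on the gene-dense chromosomes 19 and 22, where gained sites were least frequent. On chromosome 19, with 25.03 genes per Mb, 30.0% (22.8 to 38.0) of 150 untreated sites were lost and 10.3% (5.41 to 17.2) of 117 camptothecin sites were gained. On chromosome 22, 33.6% (24.9 to 43.3) of 110 were lost and 10.98% (5.14 to 19.8) of 82 gained. Chromosome 13, with 2.80 genes per Mb, had 13.4% (11.5 to 15.5) of 1180 lost and 26.2% (23.9 to 28.6) of 1380 gained, and chromosome 4 had 15.1% lost and 27.5% gained. The total went from 1180 to 1380 sites on chromosome 13 and from 150 to 117 on chromosome 19. Of 23 chromosomes, 14 had more camptothecin than untreated sites and 9 had fewer. The order by gene density was not strict. Chromosome 1, with 8.39 genes per Mb, had 28.02% (26.3 to 29.8) of 2584 sites gained, and the gene-poor chromosome 18, with 3.41 genes per Mb, had 19.97% (16.9 to 23.3) of 636 gained and 17.9% (14.9 to 21.1) of 621 lost.

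**Figure D5:**
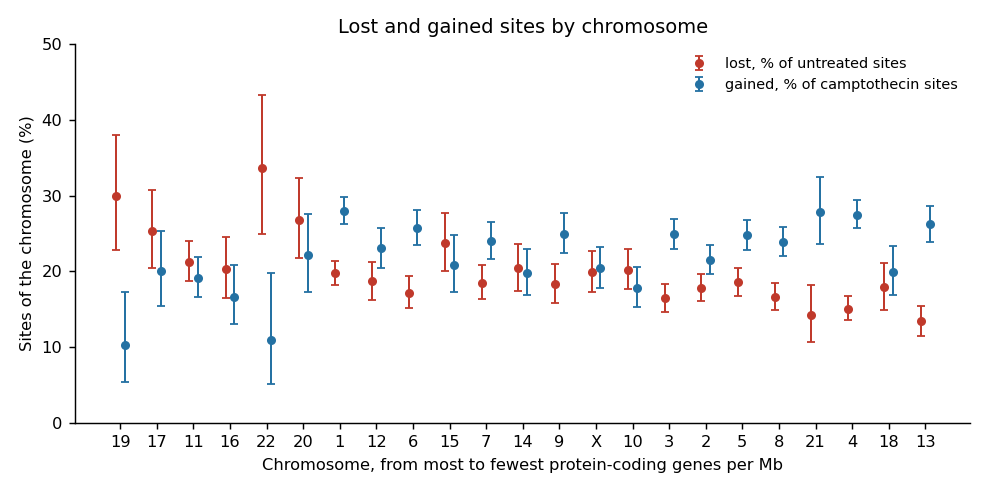
Share of untreated sites lost (red) and of camptothecin sites gained (blue) on each chromosome (y axis, %), with exact 95% intervals, ordered on the x axis from most to fewest protein-coding genes per Mb. Chromosomes 19 and 22 have the highest lost and lowest gained shares (30.0 and 33.6%, 10.3 and 10.98%), and chromosome 13 has the lowest lost share (13.4%).

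Pooled over the 5 most gene-dense chromosomes (19, 17, 11, 16 and 22), 23.1% (21.2 to 25.1) of untreated sites were lost and 17.8% (16.02 to 19.7) of camptothecin sites gained. Over the 5 most gene-poor (13, 18, 4, 21 and 8) the shares were 15.4% (14.5 to 16.4) and 25.5% (24.4 to 26.6). A/T content moved with this order too, from 69.6% at the untreated sites of chromosome 19 to 73.1% on chromosome 13. Among sites of 70 to 74% A/T the lost share was 22.6% (19.2 to 26.2) on the gene-dense and 14.5% (12.9 to 16.2) on the gene-poor chromosomes, and the gained share 17.7% (14.5 to 21.2) and 23.8% (21.9 to 25.7). At 74 to 78% the lost shares were 8.39 and 8.41%.

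The windows with the most gained sites lay in gene-poor DNA. A window of 1 Mb near the centromere of chromosome 21, starting at 10 Mb and holding TPTE, had 34 gained of 66 camptothecin sites, 51.5% (38.9 to 64.0), against 38 untreated sites. Its sequence is repeated elsewhere in the genome, so its counts are uncertain. On chromosome 1, the window from 189 Mb held no protein-coding gene and had 26 gained of 60 sites, and that from 191 Mb had 22 of 54. Around CSMD3 on chromosome 8, the windows from 113 and 114 Mb had 22 of 50 and 23 of 72. Lost sites were less concentrated. The window from 198 Mb on chromosome 1, with NEK7 and PTPRC, had 10 lost of 38 untreated sites, 26.3% (13.4 to 43.1). That from 197 Mb had 8 of 34, 23.5% (10.7 to 41.2). Both intervals include the 18.3% of the whole untreated list. These windows held 34 and 39 camptothecin sites. The windows from 112 Mb on chromosome 8, 107 Mb on chromosome 2 and 54 Mb on chromosome 10 had 8 of 36, 7 of 12 and 7 of 16. Their lost shares were 22.2% (10.1 to 39.2), 58.3% (27.7 to 84.8) and 43.75% (19.8 to 70.1), with 45, 6 and 10 camptothecin sites. All windows were ranked by these counts. The window on chromosome 10 holds DKK1, an inhibitor of Wnt signaling, and PRKG1.

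Few sites of any class lay in open chromatin, and gained sites did so least often. In native MCF10A cells, ATAC-seq peaks covered 5.32% of the genome and overlapped 3.74% (3.19 to 4.36) of lost, 3.35% (3.09 to 3.61) of kept untreated, 3.44% (3.18 to 3.71) of kept camptothecin and 2.33% (1.956 to 2.75) of gained sites. In Satb1-expressing cells the peaks covered 8.26% of the genome and overlapped 5.27% (4.61 to 5.99), 4.50% (4.21 to 4.81), 4.49% (4.20 to 4.80) and 3.03% (2.60 to 3.50). The intervals of gained and kept sites did not overlap in either list. Those of lost and kept sites overlapped. The difference of lost from kept sites was 0.395 percentage points (-0.234 to 1.02) in native and 0.764 (0.0253 to 1.50) in Satb1 peaks, and by summit alone it was 0.554 (0.0750 to 1.03) and 1.497 (0.876 to 2.12). With −log10 q of at least 5 in both lists it was 0.0730 (-0.551 to 0.697) and 0.391 (-0.348 to 1.13). Within every A/T class, untreated sites in a native peak were lost less often than those outside. At 62 to 66% A/T the lost shares were 27.7% (19.6 to 36.9) inside and 41.7% (39.2 to 44.2) outside. At 70 to 74% they were 14.3% (9.78 to 19.9) and 17.8% (16.9 to 18.8). Only at 62 to 66% were the intervals apart. Counting only sites whose summit lay in a native peak, the difference of gained from kept sites was -0.264 percentage points (-0.611 to 0.0833), an interval that includes 0. In the weakest quartile of the camptothecin list, 2.70% (2.20 to 3.28) of gained and 4.60% (3.802 to 5.50) of kept sites overlapped a native peak. Both ATAC-seq lists came from cells without camptothecin, so accessibility after the inhibitor was not measured.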

How the data were processed

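ChIP-seq peaks of Satb1-eGFP were analysed in MCF10A cells with and without camptothecin, beside 3 further ChIP-seq and 2 ATAC-seq lists of that line; 3 mouse lists and the other samples were not used here. The authors trimmed reads with cutadapt, aligned them to hg19 with Bowtie2 and called peaks with MACS2 (ChIP-seq against input, ATAC-seq as broad peaks). The study gives a version for the trimming tool alone and a range of depth over its ChIP-seq libraries. The depth of each list, the other versions and the pooling of duplicates are not given in the sources used here. The fold enrichment is the authors' ratio of pileup to local background. The −log10 p-value and the −log10 q-value were used as deposited, and the deposited score is 10 times the −log10 q-value, cut to a whole number.

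Peaks were joined by at least 1 shared bp. Genes were the protein-coding genes of GENCODE 44 lifted to GRCh37, and no peak ran past a chromosome end of that build. Words were counted in 400 bp and A/T content in 200 bp of hg19 at the peak midpoint. With 1 list per condition no test was run, and fold enrichments were ranked only within a list. The text names the 10 strongest lost and gained and 5 kept sites, the 10 genes with most lost and gained and 5 with most kept sites, 5 pairs each way by rank, 5 windows of 1 Mb each way and members of 12 gene lists, except a few items that are not reported here. Members, lists and comparisons were chosen with earlier results of these data known, and the list members named were picked after their values were seen. The functions were tested on simulated data, with 0 differences from known answers or from bedtools. Alternatives covered the overlap rule, peak thresholds, annotation and windows. Versions were matplotlib 3.10.9, samtools 1.23.1, bedtools 2.31.1, pysam 0.24.0, pandas 2.3.3, scipy 1.17.1, numpy 2.4.6 and Python 3.11.15.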

Additional observations from a re-analysis of the deposited data

How the results depend on the processing

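Of 109 alternative values for 35 results, 67 stayed within the error, 39 moved and 3 changed sign. The intervals of those 3 include 0. The lost share was 20.2% with a reciprocal overlap of 50%, 19.1% with summits within 200 bp, 17.7% with gaps of up to 1000 bp joined, 21.1% at a fold enrichment of at least 5 in both lists, 19.1% with the 15000 strongest peaks of each list and 0.0619% among peaks of at least 10. The gained share was 25.4% with the reciprocal overlap, 22.8% with gaps joined, 22.9% at −log10 q of at least 5, 19.2% at a fold enrichment of at least 5, 19.2% with 15000 peaks and 0.0169% among peaks of at least 10. So the gained share exceeded the lost share by little with 15000 peaks and was below it at a fold enrichment of at least 5.

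The A/T difference from kept sites was -4.07 points for lost and 1.46 for gained sites with 15000 peaks, -1.58 and 1.27 in the flanks, and 0.570 for gained sites in 150 bp. Word differences were -0.242 for lost sites in 150 bp and -0.582 for gained sites with gaps joined. With the reciprocal overlap, lost minus kept was -12.3 points in the dHD list and -27.7 in the ICRF-193 list, and gained minus kept -21.2 in the N-C1 and -21.6 in the ICRF-193 list. By summit, gained minus kept was -0.264 in native and -0.474 in Satb1 ATAC-seq peaks. Gained peaks were 87 bp narrower (-87) at −log10 q of at least 5.

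For the share within 50 kb of a start, lost minus kept changed sign in 2 A/T classes. It was -3.38 points (-8.27 to 1.51) at 62 to 66% A/T and -0.31 (-3.54 to 2.91) at 66 to 70%, intervals that include 0. Gained minus kept was -2.77 with transcripts of every type, and -13.6, -3.31 and -2.14 at 62 to 66, 74 to 78 and 78 to 82% A/T. For gene-dense minus gene-poor chromosomes, the lost difference changed sign to -0.0235 (-2.88 to 2.84) at 74 to 78% A/T. It was 3.84 (-1.17 to 8.86) at 78 to 82% and 3.71 with 15000 peaks. The gained difference was -11.3 at 66 to 70% and -0.385 (-7.33 to 6.55) at 78 to 82%. With 15000 peaks, 16.3% were lost and 22.1% gained on chromosome 13, and 24.2% lost on chromosome 22. In gene bodies alone, 6.72% of genes had a gained and 7.31% a lost site. The cause of these changes was not tested. The A/T classes, flanks and A/T thresholds were chosen after seeing the data. No paired analysis was possible because each condition has 1 list and the result comes from no test. Depth per list is unknown, so weak sites near a threshold limit every class.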

Other observations

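Kept peaks were wider after camptothecin in 71.7% of the 18526 pairs, with medians of 384 and 336 bp, and paired summits lay a median of 22 bp apart. The narrowest peak also differed between the lists, 250 bp after camptothecin and 219 bp untreated. The part of peak calling in the widths was not tested. In 68 cases 1 camptothecin peak covered 2 or more untreated peaks, and in 19 cases 1 untreated peak met 2 or more camptothecin peaks. The untreated sites absent from both inhibitor lists numbered 1337, and 278 were absent after ICRF-193 but present after camptothecin.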
